A study of Mus musculus with 14 samples.

Results

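Complement genes were followed in the left ventricle of mice with and without Hspb8 (Hsp22), a small heat shock protein of cardiac muscle, at rest and after 3 days of pressure overload. The set held 8 symbols: C1qa, C1qb, C1qc, C3, C4b, Cfb, Serping1 and C3ar1. Its members were all probe sets of the deposited expression table that the array annotation assigned to exactly 1 of these symbols. By that rule 6 genes were measured, with 10 probe sets of the 45037 in the table. C3 is not analysed here, and C4b was represented only by a probe set that also carries the symbol C4a, so neither was counted.

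The study measured RNA on 14 whole-genome mouse microarrays of left ventricular tissue from male C57BL/6 mice. Transverse aortic constriction (TAC), a surgical narrowing of the aorta that loads the left ventricle, was in place for 3 days in 4 Hspb8 knockout hearts (TAC KO) and 4 wild-type hearts (TAC WT). At baseline there were 3 knockout hearts (basal KO) and 3 wild-type hearts (basal WT), and no sham-operated group was labelled. All mice shared strain and sex. The sources used here do not give the age of the mice, the part of Hspb8 that was removed, or whether each array holds 1 animal, so p-values measure the spread between arrays, which may be technical.

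The genotype labels were checked on Hspb8. Probe set 1417013_at read 5.02, 4.97, 4.69 and 4.27 in TAC KO, 11.29, 11.41, 11.09 and 12.29 in TAC WT, 5.13, 4.97 and 4.40 in basal KO, and 11.29, 11.75 and 11.99 in basal WT (log2 intensity). A second Hspb8 probe set was lower by 5.29 after TAC and by 5.48 at baseline, and the third, 1456434_x_at, differed by -0.60 and -1.08 without passing the test (limma adjusted p = 0.327 and 0.214). The mean of 7 cardiomyocyte markers lay between 13.8 and 14.2 on every array, and array medians between 5.70 and 5.80. Array file names group the arrays by date: all TAC arrays lie apart from all basal arrays, so array batch and surgery cannot be told apart, and basal KO array 3 lies apart from the other basal arrays. TAC WT array 3 was the highest of its group for the C1q genes and C3ar1, and the lowest correlation between TAC WT arrays, 0.967, was between arrays 1 and 3, against a lowest of 0.986 between TAC KO arrays. By Dixon's test no array was an outlier for any member probe set: the gap to the nearest array over the group's range reached at most 0.80 in TAC WT, below the 95% critical value for 4 arrays. Leaving array 3 out was chosen after seeing the data, and results that rest on it are given with and without it.

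Complement is a cascade of plasma and tissue proteins that tags targets for removal and calls in immune cells. The classical route starts when C1q, built from A, B and C chains encoded by C1qa, C1qb and C1qc, binds a target and sets off the proteases C1r and C1s, which cleave C4 and C2. The alternative route amplifies deposition of C3 through factor B (Cfb), C1 inhibitor (Serping1) blocks the C1r and C1s proteases, and the C3a fragment signals through the receptor C3ar1. In tissue, C1q transcripts come mainly from macrophages and C3ar1 from myeloid cells, while C1 inhibitor is made by liver and by stromal cells.

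The 3 C1q genes are neighbours on mouse chromosome 4, and the transcripts moved together across arrays, so the start regions of the 2 of them held in the RefSeq promoter table are shown, with that of C3ar1 on chromosome 6, the member that moved most. Each window runs from 250 bases before to 50 bases after the annotated start, 5′ to 3′, in build GRCm38.p6, and all 3 genes lie on the minus strand. The windows are chr4:136886151-136886450 for C1qb, chr4:136892865-136893164 for C1qc and chr6:122856108-122856407 for C3ar1. Capitals mark every match to 1 of 5 motifs searched on both strands.
C1qb: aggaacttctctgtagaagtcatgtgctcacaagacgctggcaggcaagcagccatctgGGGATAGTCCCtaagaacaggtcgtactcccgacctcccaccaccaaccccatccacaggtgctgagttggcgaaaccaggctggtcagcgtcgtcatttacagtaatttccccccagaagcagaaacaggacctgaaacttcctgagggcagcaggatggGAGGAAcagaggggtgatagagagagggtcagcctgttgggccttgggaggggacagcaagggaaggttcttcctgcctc
C1qc: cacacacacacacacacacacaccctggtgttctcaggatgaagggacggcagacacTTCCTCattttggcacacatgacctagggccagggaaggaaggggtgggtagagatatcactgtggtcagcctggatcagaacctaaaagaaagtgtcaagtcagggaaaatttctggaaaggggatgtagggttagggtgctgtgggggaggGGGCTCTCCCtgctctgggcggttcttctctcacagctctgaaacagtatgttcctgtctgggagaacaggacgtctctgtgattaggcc
C3ar1: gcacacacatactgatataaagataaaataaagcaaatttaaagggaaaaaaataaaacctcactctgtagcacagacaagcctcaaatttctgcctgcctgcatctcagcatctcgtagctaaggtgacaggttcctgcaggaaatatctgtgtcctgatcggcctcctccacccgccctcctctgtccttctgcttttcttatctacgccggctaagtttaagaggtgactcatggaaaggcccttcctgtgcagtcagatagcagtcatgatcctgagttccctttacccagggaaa
The motifs were the interferon-gamma element GAS (TTCNNNGAA), the interferon-stimulated element ISRE, the NF-kappaB site, the PU.1 core (GAGGAA) and the C/EBP site (TTGCNNAA). C1qb held the NF-kappaB pattern on both strands, as 2 matches that overlap from position -191 to -181 relative to the start, and the PU.1 core at -30 to -25. C1qc held the NF-kappaB pattern at -40 to -31 and the PU.1 core at -193 to -188, both on the strand opposite to the gene. The C3ar1 window held none of the 5. Of 32851 mouse promoter windows, 20.7% hold the NF-kappaB pattern, 28.3% the PU.1 core, 10.8% the C/EBP, 8.3% the GAS and 3.4% the ISRE pattern, so these letters are common and describe the windows only.

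After 3 days of TAC, the transcripts of the C1q chains and of C3ar1 were higher than at baseline in both genotypes, and Serping1 did not pass the test in either. In wild-type hearts 5 of the 6 measured genes rose, where 39.7% of all probe sets passed the test in either direction and 16.3% were higher. In knockout hearts 4 of the 6 rose, against a background of 29.1% in either direction and 13.0% higher. The median log2 difference of the 6 genes was 0.84 in wild type and 0.80 in knockout, against -0.13 and -0.09 over all probe sets. In knockout hearts the arrays of 5 of the 6 genes lay wholly above their basal arrays (16.9% of all probe sets did), and in wild-type hearts those of 2, C1qc and C3ar1, did (16.2%). Without TAC WT array 3, 4 of the 6 genes rose in wild type, where 14.2% of all probe sets were higher, and the wild-type median of the 6 genes was 0.53. These are bulk tissue measurements, in which a change in the number of cells of a type and a change in RNA per cell cannot be told apart. A gene with several probe sets is given by the one with the highest mean over the 14 arrays unless another is named.

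**Figure D1:**
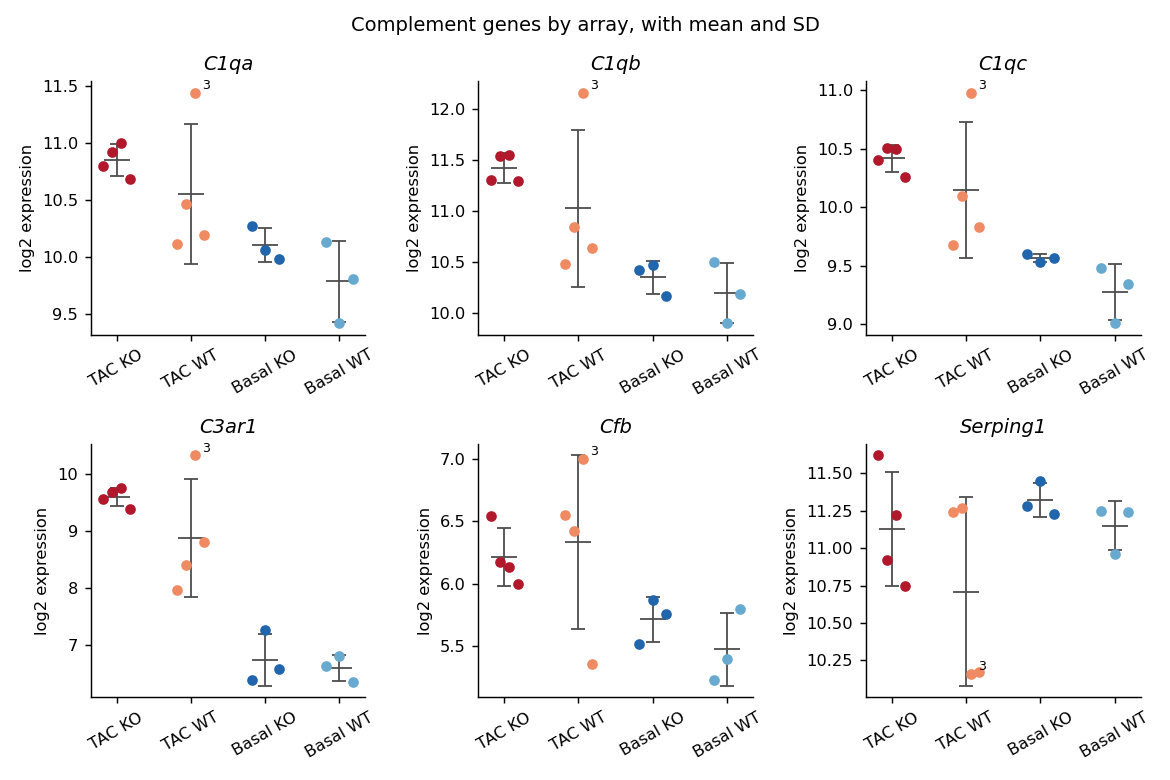
Log2 intensity of the 6 measured complement genes on each array, in the order TAC KO, TAC WT, basal KO and basal WT, with 1 point per array and a bar at the group mean ± SD. TAC WT array 3 is the highest of its group for the C1q genes (11.44 for C1qa) and C3ar1 (10.33), and Serping1 shows no rise after TAC.

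C1qa, the A chain of C1q, read 10.80, 10.92, 11.00 and 10.68 in TAC KO, 10.11, 10.46, 11.44 and 10.19 in TAC WT, 10.27, 10.06 and 9.98 in basal KO, and 10.13, 9.42 and 9.81 in basal WT. All TAC KO arrays lay above all basal KO arrays, while in wild type 1 TAC array lay just below the highest basal one. The log2 difference was 0.75 ± 0.26 in knockout (SE, n = 4 and 3, limma adjusted p = 0.0409) and 0.76 ± 0.26 in wild type (adjusted p = 0.0294), or 1.68-fold and 1.70-fold.

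C1qb, the B chain, read 11.30, 11.54, 11.55 and 11.29 in TAC KO, 10.48, 10.84, 12.16 and 10.64 in TAC WT, 10.42, 10.47 and 10.17 in basal KO, and 10.50, 9.91 and 10.19 in basal WT. Knockout arrays again separated fully between TAC and baseline and wild-type arrays did not. The log2 difference was 1.07 ± 0.30 in knockout (limma adjusted p = 0.0164) and 0.83 ± 0.30 in wild type (adjusted p = 0.0393).
Both other C1qb probe sets rose in both genotypes, but by unequal amounts. Probe set 1437726_x_at read 9.53, 10.28, 9.75 and 9.97 in TAC KO, 9.17, 9.63, 11.45 and 9.87 in TAC WT, 7.89, 8.13 and 8.18 in basal KO, and 8.23, 7.55 and 7.57 in basal WT. It gave 1.82 in knockout and 2.25 in wild type, against 0.75 and 0.97 for 1434366_x_at, so the size of the C1qb response depends on the probe set, and probe sets of the _x_at class can bind related transcripts.

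C1qc, the C chain, read 10.40, 10.51, 10.50 and 10.26 in TAC KO, 9.68, 10.10, 10.98 and 9.83 in TAC WT, 9.60, 9.53 and 9.57 in basal KO, and 9.48, 9.01 and 9.34 in basal WT. Every TAC array lay above every basal array of its genotype. The log2 difference was 0.85 ± 0.23 in knockout (limma adjusted p = 0.0140) and 0.87 ± 0.23 in wild type (adjusted p = 0.00941), or 1.80-fold and 1.83-fold.

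Cfb, the protease of the alternative pathway convertase, read 6.54, 6.17, 6.13 and 6.00 in TAC KO, 6.55, 6.42, 7.0 and 5.36 in TAC WT, 5.52, 5.87 and 5.76 in basal KO, and 5.23, 5.40 and 5.80 in basal WT. Its basal means of 5.72 in knockout and 5.48 in wild type lay below the table median of 5.75. It was higher after TAC in wild type by 0.86 ± 0.28 (limma adjusted p = 0.0279), although TAC WT array 4 lay among the basal arrays. In knockout all TAC arrays lay above the basal ones, yet the difference of 0.49 did not pass (95% interval -0.11 to 1.10, adjusted p = 0.201).

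Serping1, which encodes C1 inhibitor, read 11.62, 10.92, 11.22 and 10.75 in TAC KO, 11.24, 11.27, 10.16 and 10.17 in TAC WT, 11.28, 11.45 and 11.23 in basal KO, and 11.25, 10.96 and 11.24 in basal WT. TAC and basal arrays overlapped in both genotypes, and TAC WT arrays 3 and 4 were the lowest of all. The difference was -0.19 in knockout (95% interval -0.78 to 0.39, limma adjusted p = 0.622) and -0.44 in wild type (-1.02 to 0.14, adjusted p = 0.205).

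C3ar1, the receptor for C3a on myeloid cells, read 9.57, 9.68, 9.76 and 9.39 in TAC KO, 7.97, 8.41, 10.33 and 8.81 in TAC WT, 6.39, 7.26 and 6.59 in basal KO, and 6.63, 6.81 and 6.36 in basal WT. No TAC array overlapped with the basal arrays of its genotype. The difference was 2.85 ± 0.40 in knockout (7.23-fold, limma adjusted p = 0.000329) and 2.28 ± 0.40 in wild type (4.86-fold, adjusted p = 0.000801). These were the largest among the probe sets used for each gene. Probe set 1419482_at of C3ar1 read 8.80, 9.17, 9.32 and 9.04 in TAC KO, 7.52, 7.87, 9.91 and 8.30 in TAC WT, 6.47, 6.78 and 6.53 in basal KO, and 6.92, 7.10 and 6.89 in basal WT. The third, 1442082_at, read 8.75, 8.94, 9.15 and 8.81 in TAC KO, 7.04, 7.66, 9.90 and 8.12 in TAC WT, 5.81, 6.30 and 6.10 in basal KO, and 5.94, 6.48 and 5.88 in basal WT. Both separated TAC from basal arrays without overlap, and both rose, by 2.49 and 2.84 in knockout and by 1.43 and 2.08 in wild type. In wild type C1qb probe set 1437726_x_at, at 2.25, rose more than either. Without TAC WT array 3 the wild-type differences were 1.80 for C3ar1 probe set 1419483_at, 0.93 for 1419482_at and 1.51 for 1442082_at. That C1qb probe set then gave 1.77, and all of these passed.

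**Figure D2:**
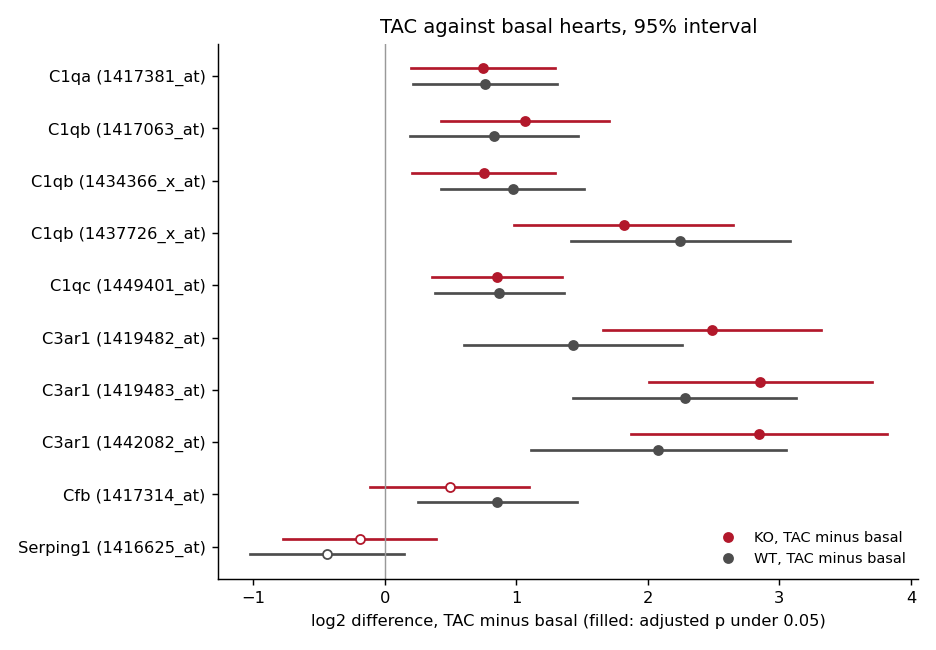
Log2 difference of TAC minus basal hearts for each of the 10 probe sets, knockout above wild type, with 95% limma intervals, filled points for an adjusted p under 0.05 and a line at no difference. C3ar1 probe set 1419483_at lies farthest to the right in both genotypes (2.85 and 2.28) and the intervals of Serping1 span 0.

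Several of these calls depend on single arrays. In wild type, C1qa and C1qb no longer passed without basal WT array 2 (limma adjusted p = 0.135 and 0.143) or 3 (0.0668 and 0.0897), fell to differences of 0.47 and 0.45 without TAC WT array 3 (adjusted p = 0.0435 and 0.0377), and Cfb lost its call without TAC WT array 1, 2 or 3 or basal WT array 1 or 2 (0.0511 to 0.0961). In knockout, C1qa lost its call without basal WT array 3, any basal KO array or any TAC KO array (0.0516 to 0.115), and C1qb without basal KO array 3 (0.0606), while C3ar1 in both genotypes and C1qc in knockout kept theirs under all 27 alternatives run.

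Markers of macrophages moved with the C1q genes and C3ar1. Of 12 macrophage markers, 7 rose after TAC in each genotype, where 13.0% of all probe sets were higher in knockout and 16.3% in wild type. The summed intensity of the list lay between 13.75 and 13.98 on the log2 scale in TAC KO, 12.91 and 14.44 in TAC WT, 12.74 and 12.89 in basal KO, and 12.35 and 12.63 in basal WT. Of these markers 1, Fcgr1, averaged below the table median at baseline, and the other 11 lay above it in every group. Cd68, a lysosomal glycoprotein of macrophages, was higher after TAC by 2.22 in knockout and by 2.37 in wild type. Without TAC WT array 3, Cd68 was higher by 1.93 in wild type. In that fit 7 of the 12 markers rose in wild type, where 14.2% of all probe sets were higher. TAC WT array 3 was the highest array of its group for this list too, and the part of macrophage number in the complement differences was not tested.

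The comparison that bears on Hspb8 under load sets TAC KO against TAC WT. With all arrays, C3ar1 averaged 9.60 ± 0.16 in TAC KO and 8.88 ± 1.03 in TAC WT, C1qb 11.42 ± 0.14 and 11.03 ± 0.77, and Serping1 11.13 ± 0.38 and 10.71 ± 0.63 (SD, n = 4 each). None of the 6 genes passed the test, where 0.0155% of all probe sets did, and none had an unadjusted limma p under 0.05, where 6.57% of all probe sets had one. The lowest unadjusted p, 0.0696, belonged to C3ar1, with a difference of 0.72 (95% interval -0.07 to 1.51, adjusted p = 0.798). The intervals ran from -0.21 to 0.81 for C1qa, from -0.20 to 0.98 for C1qb, from -0.19 to 0.73 for C1qc, from -0.68 to 0.44 for Cfb and from -0.12 to 0.96 for Serping1, and each of them includes 0.

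Arrays of TAC WT were more scattered than those of TAC KO for every one of the 10 probe sets, with SDs from 0.58 to 1.23 in TAC WT and from 0.12 to 0.38 in TAC KO. TAC WT array 3 lay above all TAC KO arrays for C1qa, C1qb, C1qc and C3ar1, and the other 3 TAC WT arrays lay below all of them. Without array 3, C1qb was higher in TAC KO than in TAC WT by 0.77 ± 0.14 (limma adjusted p = 0.0424) and C3ar1 by 1.20 ± 0.21 (adjusted p = 0.0342). The other C3ar1 probe sets then gave 1.19 and 1.31 (adjusted p = 0.0155 and 0.0292), whereas the other C1qb probe sets gave 0.32 and 0.33 and did not pass (0.389 and 0.654). In that fit 0.240% of all probe sets were higher and passed, and 4.81% had all TAC KO arrays above the 3 TAC WT arrays. C1qa at 0.60 and C1qc at 0.55 were in that group but did not pass (adjusted p = 0.136 and 0.100), and Cfb at 0.10 and Serping1 at 0.23 overlapped.

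Macrophage markers moved in the same direction in that fit: 11 of 12 had a positive difference and 3 passed, Cd68 at 0.85, Adgre1, the F4/80 surface receptor of macrophages, at 1.08, and Lyz2, a lysozyme of myeloid cells, at 0.99 (limma adjusted p = 0.0411, 0.0342 and 0.0285). Of all probe sets 0.240% were higher and passed there. With all 4 TAC WT arrays, all 12 differences were positive (median 0.42), none passed and 2 had an unadjusted limma p under 0.05. The basal hearts gave a like median, 0.42, for knockout against wild type, with 9 of the 12 positive and 3 negative. There none passed and 1 had an unadjusted limma p under 0.05 (7.37% of all probe sets). In TAC KO against TAC WT, fibroblast, neutrophil and proliferation markers moved with the macrophage markers, and endothelial markers the other way. At baseline 0 of 4 neutrophil and 3 of 5 endothelial markers were positive. With all arrays all 5 endothelial markers were lower in TAC KO (median -0.205), none passed and 1 had an unadjusted limma p under 0.05. Without array 3, 0 of 5 endothelial and 0 of 7 cardiomyocyte markers had a positive difference (medians -0.23 and -0.10), and none passed. After TAC, with all arrays, the 6 fibroblast markers were positive, none passed and 4 had an unadjusted p under 0.05 (6.57% of all probe sets had one). At baseline the 6 were positive too (median 0.24), none passed and 1 had an unadjusted limma p under 0.05. Tcf21 at 0.56 (limma adjusted p = 0.335), Lum at 0.53 and Pdgfra at 0.40 were higher on all TAC KO arrays than on all TAC WT arrays. Of all probe sets, 2.08% were. Without array 3 the medians were 0.52 for these 6, 0.70 for 4 neutrophil markers and 1.24 for 2 proliferation markers, every one of these differences was positive, and none passed. Their part in the complement differences was not tested.

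**Figure D3:**
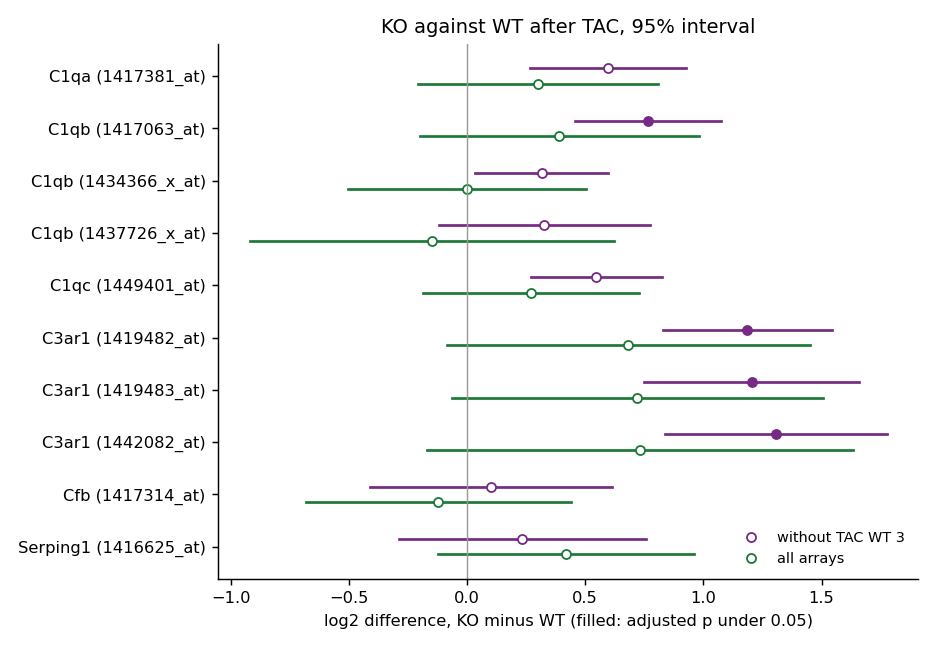
Log2 difference of TAC KO minus TAC WT for each of the 10 probe sets, without TAC WT array 3 (upper point) and with all arrays (lower point), with 95% limma intervals and filled points for an adjusted p under 0.05. The filled points are those of C1qb probe set 1417063_at (0.77) and all C3ar1 probe sets (1.19 to 1.31) without that array.

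At baseline none of the 6 genes passed the limma test between knockout and wild type, where 0.00444% of all probe sets did, and none had an unadjusted p under 0.05 (7.37% of all probe sets). C1qc was higher in all 3 basal KO arrays than in all 3 basal WT arrays, by 0.29 (adjusted p = 0.869), a pattern shared by 5.64% of all probe sets. C1qa differed by 0.32 (95% interval -0.27 to 0.90) and C3ar1 by 0.15 (-0.76 to 1.05), each with overlapping arrays, and C3ar1 probe set 1419482_at was lower in all basal KO arrays (difference -0.38) without passing, as 6.15% of all probe sets were lower on all arrays.
Whether the knockout changed the response to TAC was tested as the genotype difference after TAC minus that at baseline. None of the 6 genes passed the limma test, and no probe set of the table did (0%), with 8.16% of probe sets and none of the 6 genes at an unadjusted p under 0.05. The estimates ran from -0.36 for Cfb (95% interval -1.22 to 0.49) to 0.57 for C3ar1 (-0.63 to 1.77), and those of C1qa and C1qc were -0.02 each. Without TAC WT array 3 the estimate was 1.06 for C3ar1 (0.39 to 1.72, unadjusted p = 0.00418, adjusted p = 0.348) and 0.61 for C1qb (0.16 to 1.07, unadjusted p = 0.0113, adjusted p = 0.396), so that 2 of the 6 genes had an unadjusted p under 0.05, against 9.55% of all probe sets, and none passed. C3ar1 probe set 1419482_at then gave 1.56 (adjusted p = 0.196).

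Within groups, the C1q genes varied as a unit. Over the deviations of the 14 arrays from their group means, Pearson's r was 0.97 between C1qa and C1qb, 0.98 between C1qa and C1qc and 0.97 between C1qb and C1qc. C3ar1 followed them at 0.72 to 0.84, Cfb at 0.45 to 0.51, and Serping1 ran the other way at -0.27 to -0.38. These values share their arrays, and TAC WT array 3 has the largest deviation for the C1q genes and C3ar1, so they are descriptions.
The genes whose profile over the 14 arrays was most like each member were ranked by r among 11544 genes with a mean level above the table median. For C1qa they were Prkcb, Tyrobp and Adgre1 (r = 0.98, 0.97 and 0.97), for C1qb Tyrobp, Ms4a6c and Clec4a3 (0.98 each), and for C1qc Cybb, Mpeg1 and Tyrobp (0.98 each). Tyrobp, an adaptor of myeloid receptors, stood among the first 3 for all of the C1q genes. C3ar1 was most like Evi2a, Mpp1 and Abcc3 (0.99, 0.98 and 0.98), and Cfb most like Oasl1, an interferon-induced gene, Trim30d and Dgkz (0.93, 0.92 and 0.90). Serping1 was most like Dcn, the matrix proteoglycan decorin, C1ra, which encodes a C1r protease that C1 inhibitor blocks, and Itih5 (0.94, 0.94 and 0.93). Over deviations from group means the same pairs gave r between 0.85 and 0.98.

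**Figure D4:**
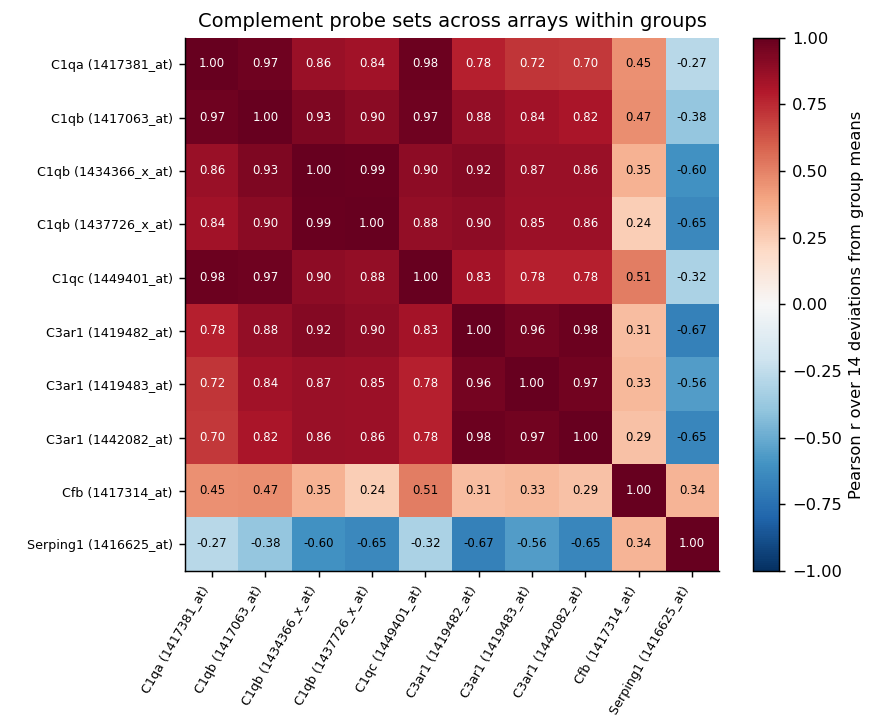
Pearson's r between the 10 complement probe sets over deviations of the 14 arrays from their group means, on a colour scale from -1 to 1. The C1q genes form a block (0.97 to 0.98 between the probe sets used for each gene), C3ar1 lies close to it, and Serping1 has negative values against both.

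The rest of the pathway was read from 46 further complement genes, of which 36 had a probe set. After TAC 5 rose and 7 fell in knockout, and 5 rose and 8 fell in wild type, with median differences of -0.15 and -0.22. Over all probe sets 13.0% were higher and 16.1% lower in knockout, and 16.3% higher and 23.3% lower in wild type. None passed in any genotype comparison by limma, and 3 of the 36 had an unadjusted p under 0.05 in TAC KO against TAC WT, where 6.57% of all probe sets had one.
Among 11 initiators and proteases, 1 rose in each genotype, Masp1, a protease of the lectin pathway. Masp1 read 8.81, 9.71, 9.25 and 9.54 in TAC KO, 8.28, 8.57, 7.44 and 9.11 in TAC WT, 6.35, 6.89 and 6.62 in basal KO, and 7.53, 7.06 and 7.25 in basal WT. Its TAC difference was 2.71 ± 0.31 in knockout (limma adjusted p = 0.000102) and 1.07 ± 0.31 in wild type (adjusted p = 0.0141). The difference between these, 1.64, did not pass (limma unadjusted p = 0.00194, adjusted p = 0.435). It combines 0.98 between TAC KO and TAC WT (adjusted p = 0.448) with -0.66 between basal KO and basal WT (adjusted p = 0.702). At baseline Masp1 was lower on all knockout arrays, as 6.15% of all probe sets were. For Masp1 TAC WT array 3 was the lowest of its group, opposite to its place for the C1q genes. Without it the TAC difference in wild type was 1.37, and the 1.64 became 1.33. Recognition molecules and Masp2, another lectin pathway protease, gave the lower calls of that list: Mbl2, Masp2 and Mbl1 fell by 0.52, 0.35 and 0.37 in knockout, and Fcnb and Mbl2 fell by 0.53 and 0.39 in wild type. Mbl1 and Mbl2 lay below the table median in all groups, and the wild-type call of Mbl2 was lost without TAC WT array 3 (limma adjusted p = 0.0883).

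Of 8 other receptors, 3 rose in each genotype. Itgam and Itgb2, the chains of complement receptor 3 on myeloid cells, were higher after TAC by 2.13 and 1.37 in knockout and by 1.58 and 1.22 in wild type, and Vsig4, a macrophage receptor for C3 fragments, by 1.40 and 0.80. C1qbp, a mainly mitochondrial protein that binds C1q, fell by 0.29 in knockout, and Cr2, a receptor of B cells, fell by 0.48 in wild type at a level below the table median. Of 8 other regulators, Clu, which encodes clusterin, an inhibitor of the terminal complex, rose in both genotypes (0.58 in knockout and 0.45 in wild type). Vtn, which encodes vitronectin, and Cd46, a membrane cofactor for C3b cleavage, fell in both, by 1.04 and 0.56 in knockout and by 0.94 and 0.73 in wild type, and C4bp, a plasma inhibitor of the C4b-containing convertase, fell by 0.42 in wild type at a level below the table median. Without TAC WT array 3 the wild-type differences of Itgam, Itgb2 and Vsig4 were 1.0, 0.75 and 1.02 and passed, while Cr2, Clu and C4bp did not pass (limma adjusted p = 0.0717, 0.116 and 0.0970).
The 3 further alternative pathway genes measured did not pass in either genotype, and the 6 terminal pathway genes, whose products form the membrane attack complex, lay below the table median in all groups. Of those 6, C6 passed in knockout (-0.48, adjusted p = 0.0382) and C8a in wild type (-0.45, adjusted p = 0.00800), both by limma and both lower. The lower quartile of all probe sets was 4.33 to 4.44 on TAC arrays and 4.51 to 4.58 on basal arrays, and its part in the lower values of dim genes was not tested.

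**Figure D5:**
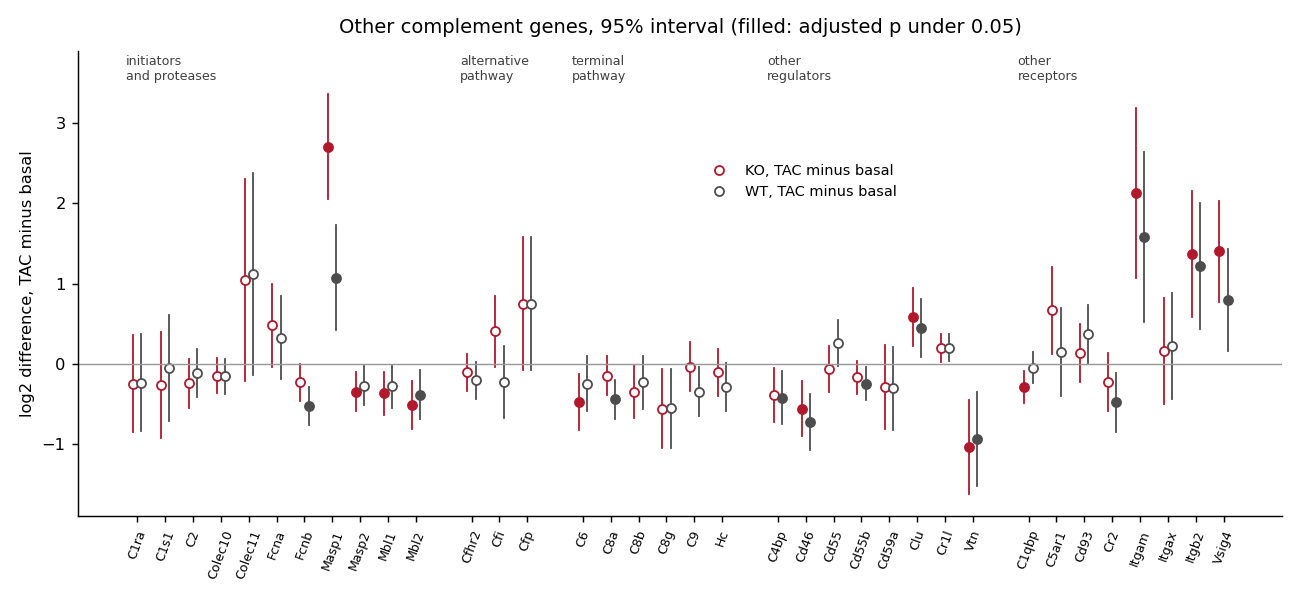
Log2 difference of TAC minus basal hearts (vertical axis) for the 36 further complement genes measured, grouped by role, with knockout left of wild type, 95% limma intervals and filled points for an adjusted p under 0.05. Masp1 (2.71 in knockout, 1.07 in wild type) and the receptors Itgam, Itgb2 and Vsig4 lie highest among the points that passed, and all points of the terminal pathway lie below 0.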

How the data were processed

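RNA from 14 left ventricular samples was read on whole-genome arrays. The log2 values were deposited by the authors after RMA, a method that usually corrects background, quantile-normalizes and summarises probe sets, per the submitters' processing notes; the sources used here give no version. Whether all arrays were normalized together is not stated. The files' 45101 probe sets included 64 controls, which were left out, leaving 45037: 34945 with 1 symbol in the annotation given, 932 with several and 9160 with none. No filter on low values was applied, so no member had to be high to be tested. Groups came from sample titles.

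limma 3.58.1 in R 4.3.3 fitted 1 mean per group over the 14 arrays (10 residual degrees of freedom, 4.41 prior), with empirical Bayes moderation and Benjamini-Hochberg adjustment over all probe sets. A call is an adjusted p under 0.05. The script was tested on simulated data. All members were named. Of the other complement genes, up to 4 that passed were named per list and comparison, by smallest p; of each marker list, up to 3 by smallest p; and for each member the 3 genes most like it. The members and lists were chosen with earlier results of these data known. Alternatives were another probe set rule, scalings, filters, array weights, blocks and leaving out each array. The results without TAC WT array 3 for all lists, and without TAC WT array 4 for the interferon-gamma genes, were added after seeing the data. The number of arrays limits precision.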

Additional observations from a re-analysis of the deposited data

How the results depend on the processing

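The count of complement genes higher after TAC in wild type was 5 as reported, 3 with quantile normalization and 1 when only the arrays compared were fitted. Leaving out 1 array gave 2 to 5 in wild type (2 without basal WT array 2 and 3 without basal WT array 3), 2 to 4 in knockout (2 without basal KO array 3), 0 to 2 for TAC KO against TAC WT (2 without TAC WT array 3), and 0 to 0 at baseline and for the difference of the knockout effects. With quantile normalization C1qa lost its call in knockout and in wild type (limma adjusted p = 0.0711 and 0.0872) and C1qb in wild type (0.100). When only the arrays compared were fitted, wild-type C1qa, C1qb, C1qc and Cfb did not pass (limma adjusted p = 0.0978, 0.119, 0.0524 and 0.0884), and Cfb passed in knockout (0.0249). Such a fit has fewer residual degrees of freedom and takes its spread from the compared arrays alone. The cause of these changes was not tested.

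Values that changed sign were all below the threshold. The mean of probe sets gave -0.0867 for C3ar1 at baseline and -0.14 for the C1qb difference of effects. The C1qa and C1qc differences of effects were 0.0527 and 0.0690 with quantile normalization and 0.18 and 0.14 with array weights. Leaving out 1 array, they ran from -0.19 to 0.28 and from -0.18 to 0.26, C3ar1 at baseline from -0.11 to 0.33, and Cfb in TAC KO against TAC WT from -0.45 to 0.10. Centring each array on its median moved the share of higher calls in wild type to 54.6% from the 41.1% of the deposited scale, and the median of all probe sets to -0.05 from -0.13.

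Whether equal replicate numbers pair the arrays could not be settled. The deviations of replicates 1 to 4 correlated at 0.51, -0.01, -0.09 and 0.41 between TAC KO and TAC WT. TAC KO arrays 1 and 4 correlated best with the TAC WT array of their own number, and arrays 2 and 3 did not. With the replicate block 5 genes rose in wild type, 5 in knockout (Cfb added, 0.69) and 0 passed between TAC KO and TAC WT. Cfb was not tested under the stricter filter.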

Other observations

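The probe set annotated to both C4a and C4b, whose transcripts cannot be told apart there, read 9.63, 8.81, 8.93 and 9.0 in TAC KO, 9.19, 9.49, 8.29 and 7.96 in TAC WT, 8.87, 9.16 and 8.47 in basal KO, and 8.51, 8.47 and 8.37 in basal WT. No comparison passed, with limma adjusted p between 0.474 and 0.994, and TAC WT arrays 3 and 4 were its lowest values, as for Serping1. C4 is the component cleaved by the protease that Serping1 blocks.

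TAC WT array 3 did not stand at the same end for all macrophage genes. It was the highest of its group for Cd68 (10.55, against 8.46, 8.82 and 9.14) and Adgre1 (10.46, against 8.02, 8.40 and 8.38), and the lowest for Lyve1 (8.39, against 9.69, 9.76 and 10.02), Cd163 (7.36, against 8.0, 7.63 and 8.29) and Vsig4 (6.76, against 7.51, 7.50 and 7.90), receptors of tissue-resident macrophages. It was also the highest for Folr2 (8.14, against 7.38, 7.63 and 7.36) and Mertk (8.52, against 7.88, 7.68 and 7.69), which resident macrophages express too. TAC KO array 2 was likewise the lowest of its group for Lyve1 (8.50), Cd163 (8.33) and Vsig4 (7.31). These genes were chosen after their values were seen.

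Other marker lists also moved with TAC. Of 6 fibroblast markers, 4 rose in each genotype, with a mean level of the list between 11.4 and 11.6 in TAC KO, 10.7 and 11.2 in TAC WT, 10.5 and 10.7 in basal KO, and 9.78 and 10.3 in basal WT. Of 3 monocyte markers 2 rose in each genotype, and of 4 neutrophil markers 2 rose in knockout, S100a8 and S100a9, and 0 in wild type. In wild type 1 fibroblast, 1 monocyte and 1 neutrophil marker passed as lower. Both proliferation markers, Mki67 and Top2a, rose in each genotype. Of 4 smooth muscle and pericyte markers, 2 rose in knockout, and 1 rose and 1 fell in wild type. None of the 4 lymphocyte, 5 endothelial, 3 hepatocyte or 2 adipocyte markers rose in either. In knockout 1 endothelial marker, Tie1 (-1.52), and 1 hepatocyte marker were lower, and in wild type 2 endothelial markers (Tie1 at -1.02), 3 hepatocyte and 3 lymphocyte markers were lower. Over all probe sets 13.0% were higher and 16.1% lower in knockout, and 16.3% higher and 23.3% lower in wild type.

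Of 11 interferon-gamma response genes, 0 rose and 1 fell in knockout after TAC, where 13.0% of all probe sets were higher and 16.1% lower. In wild type 6 rose, among them Irgm1 at 1.52, Gbp2 at 2.03 and Gbp3 at 2.09, where 16.3% of all probe sets were higher. Without TAC WT array 3, 6 rose there as well, against 14.2% of all probe sets. TAC WT array 4 lay apart for these genes: Gbp2 read 8.13 there, against 10.54, 10.43 and 9.79 on the other TAC WT arrays and 7.88 to 8.30 in TAC KO, and Cxcl9 read 5.85, against 8.89, 9.08 and 8.37. With all arrays, by limma, 0 of the 11 passed in TAC KO against TAC WT and 8 had an unadjusted p under 0.05, against 6.57% of all probe sets. In the difference of the knockout effects, again with all arrays, 0 of the 11 passed and 9 had an unadjusted p under 0.05, against 8.16% of all probe sets. The list medians were 1.35 in wild type after TAC, -0.845 for TAC KO against TAC WT and -1.255 for the difference of the knockout effects. Without TAC WT array 4, an alternative chosen after seeing the data, these medians were 1.74, -1.22 and -1.62. In that fit, by limma, 9 of the 11 rose in wild type and 7 passed as lower in TAC KO against TAC WT. Of the 11, 5 passed as lower there in the difference of the knockout effects. The share of all probe sets passing without array 4 is not given here.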
